A study of Mus musculus with 32 samples.

Results

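The 35 genes described here belong to the integrated stress response and the unfolded protein response. They were taken by symbol from a list of ATF4 target genes, serine synthesis genes and chaperones of the endoplasmic reticulum (ER). No cutoff on their expression values was used, but earlier results of these data were known when they were chosen. They are 35 of the 55414 gene identifiers in the count table. 4 of them encode stress sensors, 8 transcription factors, 4 feedback or redox regulators, 6 synthesis enzymes, 4 amino acid transporters, 6 ER chaperones or quality control proteins, and 3 secreted factors or a receptor. Each symbol matched 1 identifier with counts. Ddit3 also had a second identifier, which held none.

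Whole mouse embryos were profiled by counting 3′ tags of their mRNA on 3 embryonic days, E8.5 and the 2 after it, E9.5 and E10.5. The embryos came from crosses of Commd10 Het mice of the line B6.Cg-Commd10Tg(Vav1-icre)A2Kio/J, in which a Vav1-iCre transgene, a Cre recombinase under a promoter of blood cells, sits in an intron of Commd10. Commd10Null (Null) embryos carry this insertion on both alleles and therefore carry iCre, and WT littermates carry neither. There were 10 WT and 3 Null libraries at E8.5, 9 WT and 3 Null at E9.5, and 4 WT and 3 Null at E10.5, which the labels call biological replicates. All Null embryos trace to 1 insertion in 1 line, and the litters and any pooling of embryos are not known from the sources used here. The embryos had been removed from their yolk sacs, and the yolk sac DNA served for genotyping. The paper describes Null development as stalled by E8.5, with progressive degradation and resorption of the Null embryos at E9.5 and E10.5. Null and WT embryos compared here thus share the embryonic day and need not share the state of development.

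The integrated stress response begins when kinases that sense amino acid shortage, unfolded ER proteins and other stresses phosphorylate the translation factor eIF2. Bulk translation then falls while the mRNA of the transcription factor ATF4 is translated more, so that ATF4 can rise without more Atf4 mRNA, and ATF4 turns on genes of amino acid uptake and synthesis. The unfolded protein response adds a pair of further sensors, IRE1, which splices Xbp1 mRNA, and ATF6, and both raise ER chaperones such as BiP. 3′ tags measure neither phosphorylation, translation nor splicing.

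Total counts ran from 7025188 to 9069005 per library. Levels are given as CPM, the usual count scale relative to library size, here with TMM factors over all 32 libraries. At E8.5 the 9 markers of visceral and yolk sac endoderm summed to 279.7 to 2753 CPM in WT and 2519 to 4015 CPM in Null libraries, and none of the 9 was at 0 in a group. Leukocyte and NK cell markers, none of 8 at 0, summed to 0.13 to 3.25 CPM in WT and 9.54 to 25.1 CPM in Null E8.5 libraries, and markers of maternal decidua and trophoblast to 12.8 to 95.8 CPM and 59.0 to 351 CPM, with 1 of 8 at 0 in Null. Neural tube markers summed to 53.1 to 308 CPM (median 263) in WT and 52.0 to 84.0 CPM (median 58.3) in Null E8.5 libraries. Cardiomyocyte markers summed to 33.2 to 1540 CPM (median 875) and 53.2 to 234 CPM (median 94.8), so that both sets overlapped. WT replicates 6, 8 and 9 were at 83.3, 33.2 and 180 CPM of cardiomyocyte markers, within or below the Null range. Erythroid markers summed to 9.48 to 445 CPM (median 64.6) in WT and 9.98 to 2096 CPM (median 664) in Null E8.5 libraries, which overlapped. The part of these marker differences in the E8.5 results, Cebpb among them, was not tested. One library stood apart in endoderm markers: Null E9.5 replicate 3 held 4653 CPM, against 167.7 and 553 CPM in the other Null E9.5 libraries. WT E9.5 libraries were at 27.6 to 127.0 CPM, and all 9 of these markers were higher in Null E9.5. Neural tube markers summed to 49.02 to 104.8 CPM in Null and 433.0 to 568.8 CPM in WT E9.5 libraries. Decidua and trophoblast markers summed to 65.66 to 234.6 CPM and 37.05 to 54.25 CPM. Cardiomyocyte markers were at 2633.8, 1818 and 301.4 CPM in Null E9.5 replicates 1, 2 and 3, against 1101.3 to 1552.6 CPM in WT. Erythroid and leukocyte sums overlapped. The part of these differences in the E9.5 results was not tested. At E10.5 the endoderm sums overlapped (50.1 to 106.9 CPM in Null, 61.5 to 1126 CPM in WT, where 1126 CPM was replicate 1). Erythroid markers summed to 2174 to 3618 CPM in Null E10.5 and 12804 to 22126 CPM in WT E10.5 libraries, cardiomyocyte markers to 3836 to 5719 CPM and 896 to 1351 CPM, and neural tube markers to 116 to 172 CPM and 384 to 612 CPM. Decidua and trophoblast markers summed to 91.5 to 166.7 CPM in Null and 35.7 to 66.7 CPM in WT E10.5 libraries, with 3 of 8 at 0 in both. Leukocyte and NK cell markers summed to 0.861 to 5.07 CPM in Null and 6.27 to 13.4 CPM in WT E10.5 libraries, which did not overlap. Markers of embryonic heart, nerve and blood were thus present in the libraries labelled embryo, and the labelled tissue was not contradicted. The tags of Commd10 itself were higher in Null (86.6 to 94.0 CPM at E8.5, 58.7 to 86.0 at E9.5, 79.2 to 92.5 at E10.5) than in WT. The WT libraries were at 36.2 to 51.5, 39.2 to 55.7 and 46.3 to 50.7 CPM. The paper places the insertion in an intron, upstream of the 3′ end, and reports no COMMD10 protein in Null E8.5 embryos. Why the tags were higher was not tested, and they do not check the genotype. In bulk embryos, fewer cells of a type and less RNA per cell cannot be told apart.

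Sequences near the start sites are shown for the members that the results turn on. ATF4 binds with C/EBP proteins at a composite element, searched as TGATGNAAN on both strands of the RefSeq promoter windows (GRCm38.p6, 250 bases before to 50 after the start site, 33 of 35 members matched). It was found in 9 of the 33 members, 27.3%, and in 3.95% of all 32851 windows. The first share counts genes and the second single windows. Since members were listed as ATF4 targets, a larger share among them follows from the choice and is no result of these data. The 9 were Asns, Atf3, Chac1, Fgf21, Herpud1, Nupr1, Slc7a11, Trib3 and Vldlr. Each run ends at or before the start site or, for Trib3, lies just after it. Capitals mark the element in the gene's own 5′ to 3′ direction, so that elements on the other strand read as the reverse complement.
Chac1: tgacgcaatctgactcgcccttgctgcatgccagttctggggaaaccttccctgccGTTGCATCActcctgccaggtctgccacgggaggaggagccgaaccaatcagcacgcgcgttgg
Trib3: attagctcaggTTTACATCAgccgggcggg
Atf3: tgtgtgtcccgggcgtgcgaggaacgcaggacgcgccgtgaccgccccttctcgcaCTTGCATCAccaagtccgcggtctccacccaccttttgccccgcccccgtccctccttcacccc
Asns: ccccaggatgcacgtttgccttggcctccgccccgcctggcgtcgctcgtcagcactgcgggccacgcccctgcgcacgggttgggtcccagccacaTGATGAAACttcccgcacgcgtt
Vldlr: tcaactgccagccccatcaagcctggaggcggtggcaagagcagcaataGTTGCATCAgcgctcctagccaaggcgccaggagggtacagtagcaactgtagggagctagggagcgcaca
Slc7a11: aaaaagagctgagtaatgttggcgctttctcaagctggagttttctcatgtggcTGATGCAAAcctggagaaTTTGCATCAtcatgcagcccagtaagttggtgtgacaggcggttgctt

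These runs are chr2:119350992-119351111 for Chac1 (plus strand), chr2:152344029-152344058 for Trib3 (minus), chr1:191183381-191183500 for Atf3 (minus), chr6:7693210-7693329 for Asns (minus), chr19:27216770-27216889 for Vldlr (plus) and chr3:50443614-50443733 for Slc7a11 (minus). Slc7a11 was the member with 2 elements, 1 on each strand, between 66 and 40 bases before its start site (positions -66 and -40). The ER stress response element, which ATF6 binds with NF-Y, is CCAAT, 9 further bases and CCACG. It was found in 0.119% of all windows and in 2 members, Hsp90b1 and Hspa5, the gene of BiP. The run of Hspa5 at chr2:34771970-34772089 (plus strand) has the element in capitals, at -65 from the start site.
Hspa5: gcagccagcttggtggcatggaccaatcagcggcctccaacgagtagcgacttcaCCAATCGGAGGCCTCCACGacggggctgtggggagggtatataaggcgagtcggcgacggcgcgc

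A second form of the element was found in Herpud1 alone among the members (0.0365% of all windows), and TGACGTGG, the unfolded protein response element, in 0 members (0.676% of all windows). A match of letters is a description and no evidence that the site is bound. Among all tested genes with the composite element in their window, 25.8% were higher in Null E10.5, against 20.3% of those without it. The shares were 24.5% against 20.1% in Null E9.5, and 8.43% against 6.57% in Null E8.5. Genes with the element include members, and none of these differences was tested.

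The members were compared between Null and WT within each stage by edgeR's quasi-likelihood test, fitted on all genes. A gene passed at an adjusted p (Benjamini-Hochberg, over all genes tested) of 0.05 or less, and a gene that also changed by a log2 fold change (log2FC) of 1 or more in size is called a DEG, which are the thresholds of the study. The effect of the genotype was also compared between stages (interaction), where 4 members passed for E9.5 against E8.5 (11.1% of all genes) and 9 for E10.5 against E8.5 (18.5%). 32 of the 35 members had enough counts to be tested at each stage, and Nupr1, Gdf15 and Fgf21 did not. At E8.5, 8 members were higher and 4 lower in Null, beside 6.73% and 6.86% of all genes. At E9.5, 7 were higher and 3 lower, beside 20.2% and 17.4%. At E10.5, 15 were higher and 1 lower, beside 20.9% and 21.4%. Upward DEGs numbered 4 at E8.5 (3.22% of all genes), 5 at E9.5 (9.35%) and 5 at E10.5 (6.88%).

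The median log2FC of the 32 members was 0.31 at E8.5, 0.29 at E9.5 and 0.35 at E10.5, against -0.02, 0.02 and 0.01 for all genes tested. At E10.5 every Null library lay above every WT library for 16 members, beside 22.1% of all genes. The same E10.5 libraries were also apart in mitochondrial genes (1.64% to 1.78% of counts in Null, 3.38% to 4.29% in WT) and in the share of the most abundant identifier (17.3% to 20.3% in Null, 2.98% to 5.71% in WT). Without that identifier the E10.5 counts were again 15 higher and 1 lower. The part of the other differences, and of the resorption that the paper describes, in the E10.5 result was not tested. The count was 5 members at E8.5 (5.74% of all genes) and 1 at E9.5 (10% of all genes). The E10.5 counts stayed at 15 or 16 higher whichever library was left out. The E9.5 count fell to 4 higher and rose to 7 lower without Null replicate 3 (18.8% and 17.9% of all genes), and rose to 13 higher without Null replicate 1 (21.9%). Calls gained in this way at E9.5 were Atf3, Xbp1, Ppp1r15a, Psat1, Slc3a2 and Herpud1 without Null replicate 1, Trib3, Psat1 and Shmt2 without replicate 2, and Eif2ak4 without replicate 3, each as higher. The E8.5 count fell to 3 higher and 0 lower without Null replicate 1, where the shares of all genes fell too, to 1.5% and 1.23%, and to 5 higher and 1 lower without replicate 3 (3.43% and 3.5%).

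**Figure D1:**
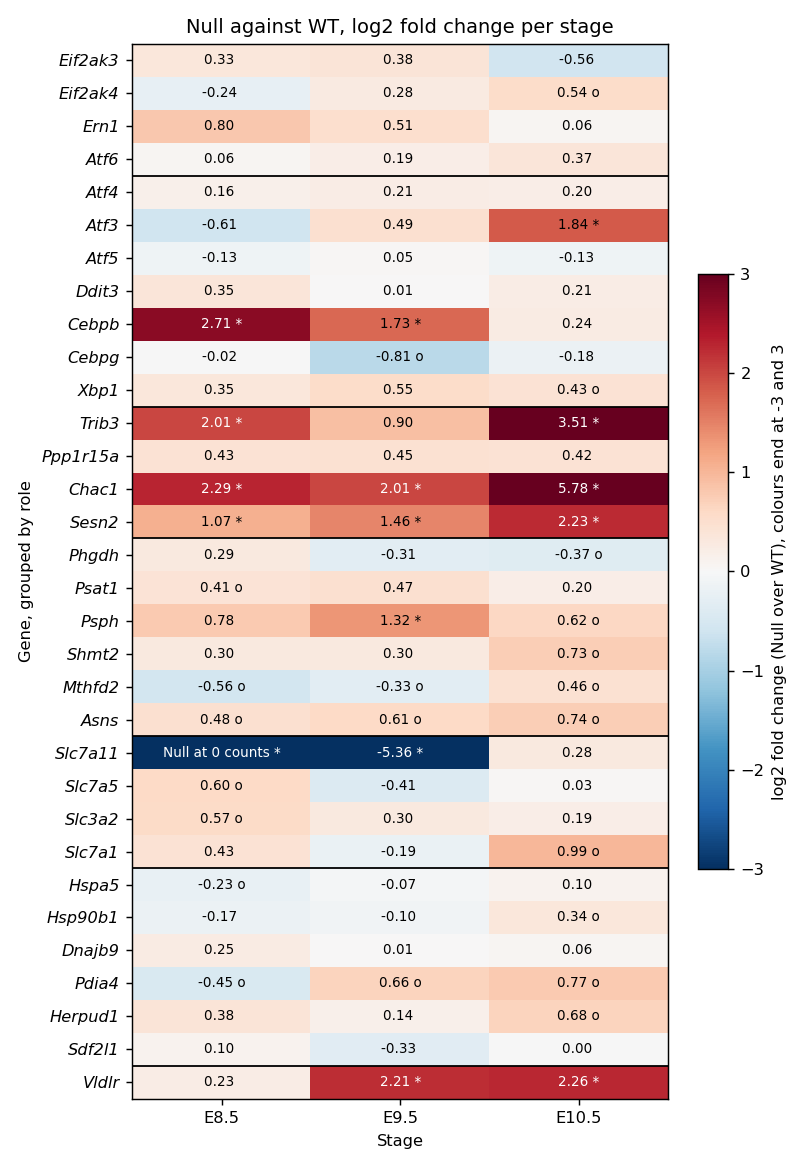
Log2 fold change of Null over WT for the 32 tested members (rows, grouped by role) at each stage (columns), with the value in each cell, o where the gene passed and * where it was a DEG. Colours end at -3 and 3, and Slc7a11 at E8.5 carries no value because its Null libraries held 0 counts. Chac1 and Sesn2 were DEGs at each of the 3 stages, and the E10.5 column has 15 members higher and 1 lower.

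1 of the 4 sensors passed, at E10.5. This was Eif2ak4, the gene of the kinase GCN2 that senses uncharged tRNA. Its E10.5 level was 25.5, 22.5, 23.1 and 23.8 CPM in the WT and 37.7, 30.4 and 34.7 CPM in the Null libraries, a log2FC of 0.54 (SE 0.12, adjusted p = 0.00274). The groups did not overlap, and the change differed from that at E8.5 by 0.76 on the log2 scale (adjusted p = 0.0141 for the interaction). Eif2ak3, the gene of the ER kinase PERK, Ern1, that of IRE1, and Atf6 did not pass at any of the 3 stages, with log2 fold changes from -0.56 to 0.80. Eif2ak3 at E10.5 was 6.66 to 8.05 CPM in WT and 3.44 to 5.94 CPM in Null libraries, which did not overlap, with an adjusted p of 0.093.

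Among the transcription factors, Atf4 mRNA did not pass at any stage. At E10.5 Atf4 was 131, 135, 127 and 103 CPM in WT and 169, 129 and 127 CPM in Null libraries, a log2FC of 0.20 (SE 0.12, adjusted p = 0.179). At E8.5 it ran from 70.5 to 128 CPM (median 91.3) in WT and was 98.0, 92.5 and 123 CPM in Null libraries, a log2FC of 0.16 (SE 0.15, adjusted p = 0.527). At E9.5 it ran from 89.2 to 201 CPM (median 112) in WT and was 180.4, 107 and 129 CPM in Null libraries, a log2FC of 0.21 (SE 0.20, adjusted p = 0.429). Null and WT overlapped at each stage.

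Atf3, a stress-induced factor downstream of ATF4, was higher in Null embryos at E10.5 and did not pass at the earlier stages. Its E10.5 levels were 3.17, 2.03, 2.45 and 1.77 CPM in WT and 11.3, 6.68 and 7.43 CPM in Null libraries, which did not overlap. The log2FC was 1.84 (SE 0.31, adjusted p = 0.000273). At E8.5 Atf3 was 2.28 to 7.28 CPM (median 3.96) in WT and 1.63, 3.98 and 2.20 CPM in Null libraries, and at E9.5 2.81 to 6.37 CPM (median 4.34) against 1.92, 9.47 and 6.76 CPM. Neither passed (adjusted p = 0.321 and 0.315), and the E10.5 change exceeded that at E8.5 by 2.43 on the log2 scale (adjusted p = 0.00226 for the interaction).

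Ddit3, the gene of the pro-apoptotic factor CHOP, showed no change that passed. It was 6.97, 5.97, 8.06 and 6.63 CPM in WT E10.5 and 6.64, 6.93 and 10.3 CPM in Null E10.5 libraries, a log2FC of 0.21 (SE 0.24, adjusted p = 0.50). At E8.5 Ddit3 was 0.565 to 2.58 CPM (median 1.28) in WT and 2.31, 1.41 and 1.61 CPM in Null libraries. At E9.5 it was 3.12 to 8.29 CPM (median 5.48) in WT and 1.92, 6.78 and 6.88 CPM in Null libraries. The sign of the E9.5 value turned with the normalization (0.01, and -0.17 without scaling factors). The 3′ end of Ddit3 overlaps Mars on the other strand, and since the sources used here do not give the strand setting of the counting, its counts are uncertain.

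Cebpb, a C/EBP factor of inflammation, differentiation and stress, was higher in Null embryos at E8.5. The WT E8.5 libraries ran from 0.36 to 2.56 CPM (median 1.53) and the Null libraries were at 9.79, 7.06 and 10.6 CPM, which did not overlap. The log2FC was 2.71 (SE 0.43, adjusted p = 0.00153), and it passed without each Null library in turn. At E9.5 the Null libraries were at 0.137, 3.71 and 24.1 CPM, where 24.1 CPM belongs to the library high in endoderm markers, against 1.56 to 4.28 CPM (median 2.77) in WT. The log2FC of 1.73 (SE 0.64, adjusted p = 0.0446) became -0.54 (adjusted p = 0.499) without that library, and the call was also lost without any 1 of the 9 WT libraries (adjusted p of 0.052 to 0.071). At E10.5 Cebpb was 3.91, 5.07, 2.80 and 3.31 CPM in WT and 6.39, 1.73 and 5.16 CPM in Null libraries (adjusted p = 0.67), and the change was smaller than at E8.5 by 2.49 on the log2 scale (-2.49, adjusted p = 0.0468 for the interaction). This interaction passed in 14 and was lost in 23 of the alternatives, with an adjusted p of up to 0.137. The 3′ end of Cebpb overlaps Tmem189 on the other strand.

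Of the other factors, Cebpg, a partner of ATF4, was lower in Null at E9.5 (log2FC -0.81, SE 0.24, adjusted p = 0.0159), at 11.5, 36.3 and 20.9 CPM against 34.4 to 51.6 CPM (median 40.7) in WT. Its E9.5 change was below that at E8.5 by 0.83 on the log2 scale (-0.83, adjusted p = 0.0479 for the interaction), which passed in 9 and was lost in 28 of the alternatives, with an adjusted p of up to 0.182. Atf5, a further ATF4-like factor, had log2 fold changes from -0.13 to 0.05 and did not pass at any stage. Nupr1 had 2 to 19 counts per group and stage and was not tested.

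Xbp1, whose spliced mRNA encodes the active factor of the IRE1 branch, was higher in Null at E10.5. It was 59.1, 49.2, 54.4 and 51.2 CPM in WT and 68.7, 75.5 and 71.1 CPM in Null libraries, which did not overlap (log2FC 0.43, SE 0.10, adjusted p = 0.00223). The E8.5 range was 60.0 to 94.1 CPM (median 78.1) in WT, with 116, 102 and 81.2 CPM in Null libraries (adjusted p = 0.0644). The E9.5 range was 47.4 to 89.7 CPM (median 59.9) in WT, with 26.4, 86.4 and 166 CPM in Null libraries (log2FC 0.55, adjusted p = 0.218), and the sign turned without the library at 166 CPM (-0.18). The E10.5 call was lost in 1 model of all 32 libraries (0.42, adjusted p = 0.301). The counts do not separate spliced from unspliced Xbp1.

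The feedback and redox regulators held 3 of the 5 upward DEGs of E10.5, with the largest fold change among the members. Chac1, whose protein degrades glutathione and whose gene is a target of ATF4, was a DEG at every stage. At E10.5 the WT libraries were at 0.317, 0.563, 0.35 and 0.592 CPM and the Null libraries at 39.8, 11.8 and 25.2 CPM. In counts, 16 tags in 4 WT libraries stood against 619 in 3 Null libraries. The log2FC was 5.78 (SE 0.43, adjusted p = 1.42e-07), the ratio of mean CPM was 56.2, and every Null library lay far above every WT library.

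At E8.5 Chac1 ran from 0.24 to 1.90 CPM (median 1.10) in WT and was 2.04, 2.69 and 11.0 CPM in Null libraries, a log2FC of 2.29 (SE 0.55, adjusted p = 0.0134). Without Null replicate 3, at 11.0 CPM, it was 1.13 (adjusted p = 0.31), while all 3 Null libraries lay above all 10 WT libraries. At E9.5 levels went from 0.244 to 1.49 CPM (median 0.498) in WT and were 3.69, 3.33 and 0.845 CPM in Null libraries, a log2FC of 2.01 (SE 0.48, adjusted p = 0.00437), and the groups overlapped through Null replicate 3. The E10.5 change exceeded the E8.5 change by 3.48 on the log2 scale (adjusted p = 0.00248 for the interaction), and for E9.5 against E8.5 the difference was -0.31 (adjusted p = 0.839).

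Trib3, a pseudokinase that restrains ATF4 and CHOP, was a DEG at E8.5 and E10.5. At E10.5 it was 1.06, 3.04, 0.817 and 1.18 CPM in WT and 23.7, 12.9 and 15.9 CPM in Null libraries, which did not overlap. The log2FC was 3.51 (SE 0.36, adjusted p = 3.14e-06). At E8.5 levels went from 0 to 4.47 CPM (median 1.40) in WT and were 6.80, 5.77 and 9.69 CPM in Null libraries, a log2FC of 2.01 (SE 0.59, adjusted p = 0.0335). Without any 1 of the Null E8.5 libraries the adjusted p lay between 0.052 and 0.14, with log2 fold changes of 1.76 to 2.18. At E9.5 Trib3 was 2.27 to 12.5 CPM (median 5.44) in WT and 13.4, 4.86 and 16.9 CPM in Null libraries, a log2FC of 0.90 (SE 0.41, adjusted p = 0.0992). The differences between the stages did not pass (adjusted p = 0.324 for E9.5 and 0.213 for E10.5, each against E8.5).

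Sesn2, an antioxidant protein that also lowers mTORC1 activity when leucine is short, was likewise a DEG at every stage. Its WT E8.5 libraries ran from 7.35 to 12.0 CPM (median 9.83) and the Null libraries were at 24.9, 18.2 and 17.8 CPM, which did not overlap (log2FC 1.07, SE 0.18, adjusted p = 0.00199). At E9.5 it ran from 4.07 to 10.6 CPM (median 5.95) in WT and was 17.8, 9.73 and 23.9 CPM in Null libraries (log2FC 1.46, SE 0.28, adjusted p = 0.00101). The E10.5 values were 5.71, 5.52, 4.55 and 6.74 CPM in WT and 29.8, 27.0 and 22.2 CPM in Null libraries (log2FC 2.23, SE 0.18, adjusted p = 3.07e-07). It passed at all 3 stages without any 1 of the Null libraries, and the E10.5 change exceeded that at E8.5 by 1.14 on the log2 scale (adjusted p = 0.0231 for the interaction). Ppp1r15a, the gene of GADD34, which helps to remove the phosphate from eIF2, had log2 fold changes of 0.42 to 0.45 and did not pass at any stage (adjusted p = 0.147 to 0.419).

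**Figure D2:**
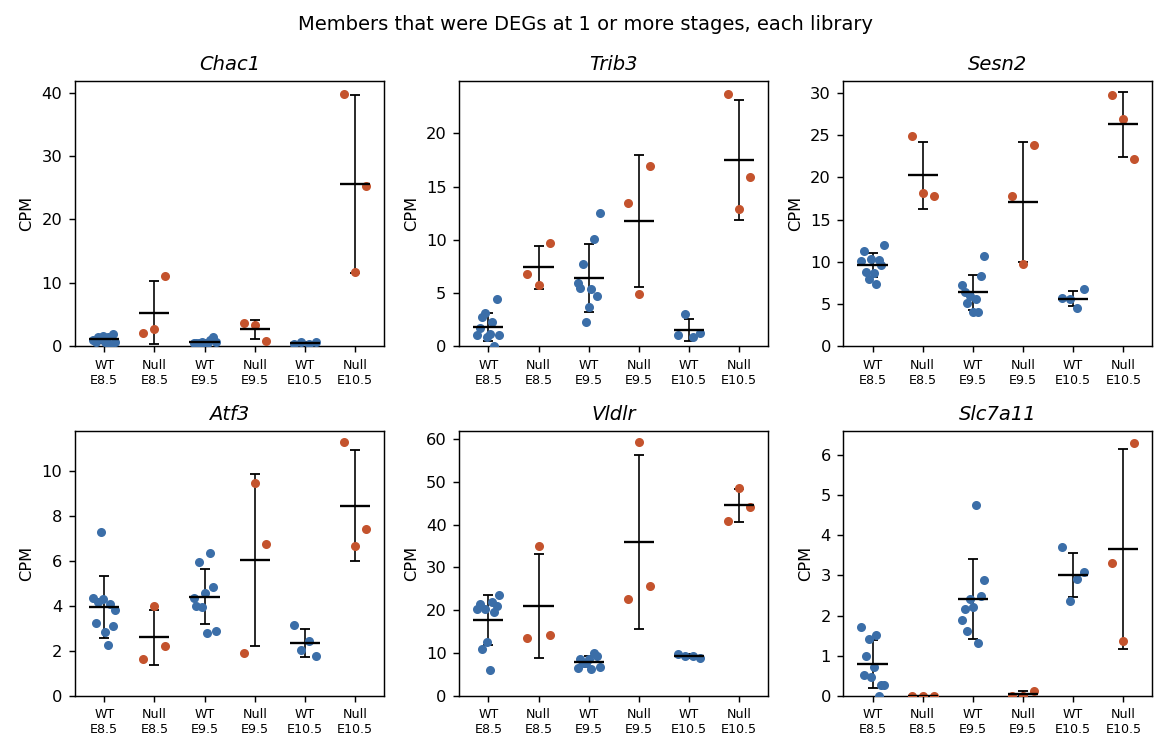
Levels in CPM of Chac1, Trib3, Sesn2, Atf3, Vldlr and Slc7a11 in each library (points, WT blue and Null red) of the 6 groups, with the group mean (line) and SD (bars, ending at 0 at the lowest). In Null E10.5 the 3 libraries lay at 11.8 to 39.8 CPM for Chac1 and 40.8 to 48.5 CPM for Vldlr, above all 4 WT libraries, while Slc7a11 was at 0 or 1 count in the Null libraries of E8.5 and E9.5.

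Among the synthesis enzymes, 4 of 6 were higher and 1 lower at E10.5. Asns, which makes asparagine, was higher at each of the 3 stages. In E10.5 libraries it was 43.8, 47.3, 47.4 and 46.4 CPM in WT and 85.2, 65.0 and 79.9 CPM in Null libraries, which did not overlap (log2FC 0.74, SE 0.11, adjusted p = 6.67e-05). At E8.5 Asns ran from 45.6 to 70.01 CPM (median 55.5) in WT and was 75.05, 67.0 and 96.9 CPM in Null libraries (log2FC 0.48, SE 0.13, adjusted p = 0.0261). The E9.5 range was 56.2 to 73.1 CPM (median 64.9) in WT, with 98.2, 55.3 and 132 CPM in Null libraries (log2FC 0.61, SE 0.18, adjusted p = 0.0134). The E8.5 and E9.5 calls were lost without Null replicate 3 of each stage (0.30, adjusted p = 0.21, and 0.29, adjusted p = 0.17), and the E8.5 call also without replicate 1 (0.52, adjusted p = 0.083).

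The serine pathway enzymes did not move together. Phgdh starts the pathway, and Psat1 and Psph follow it. Psat1 was higher at E8.5, where WT ran from 220.4 to 287 CPM (median 242) and Null was at 415, 301 and 262 CPM (log2FC 0.41, SE 0.10, adjusted p = 0.0181). Without Null replicate 1, at 415 CPM, it was 0.20 (adjusted p = 0.24). At E9.5 Psat1 ran from 190.2 to 225 CPM (median 209) in WT and was 215, 149 and 489 CPM in Null libraries (0.47, adjusted p = 0.110), and without replicate 3, at 489 CPM, the sign turned (-0.18). At E10.5 it was 144, 154, 146 and 158 CPM in WT and 175, 145 and 195 CPM in Null libraries (0.20, SE 0.10, adjusted p = 0.111).

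Psph was a DEG at E9.5, where WT ran from 14.4 to 28.1 CPM (median 22.1) and Null was at 13.3, 35.2 and 112 CPM (log2FC 1.32, SE 0.37, adjusted p = 0.0115). Without replicate 3, at 112 CPM, it was 0.17 (adjusted p = 0.65). At E10.5 Psph was 18.1, 18.4, 17.4 and 17.6 CPM in WT and 27.5, 21.7 and 32.98 CPM in Null libraries, which did not overlap (0.62, SE 0.15, adjusted p = 0.00416, and 0.283 in 1 model of all 32 libraries). At E8.5 it ran from 25.7 to 88.5 CPM (median 50.8) in WT and was 114, 79.7 and 82.5 CPM in Null libraries (0.78, SE 0.28, adjusted p = 0.0691). Phgdh was the member lower at E10.5, at 39.3, 35.4 and 42.9 CPM in Null against 58.4, 49.1, 53.1 and 42.7 CPM in WT libraries (-0.37, SE 0.12, adjusted p = 0.0266). The call was lost without Null replicate 1 (adjusted p = 0.060) or 2 (0.092), without WT replicate 1 (0.072) or 3 (0.070), and in 1 model of all libraries (0.210). The groups overlapped, and it did not pass at E8.5 or E9.5 (0.29 and -0.31), while it passed as lower at E9.5 without Null replicate 3 (-0.88).

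Psph, Psat1 and Slc3a2, the heavy chain of amino acid exchangers, were set beside the endoderm markers of each library, with Cebpb, a choice made after the values were seen. The WT E8.5 library lowest in these markers, at 279.7 CPM, had Psph at 25.7 CPM, Slc3a2 at 159 CPM and Psat1 at 220.4 CPM. The one highest in them, at 2753 CPM, had 88.5, 263 and 287 CPM, each the highest WT value. Between these 2 libraries lay, by rising marker sum, WT replicates 2, 3, 7 and 1 (300.03, 632.9, 1059 and 1171 CPM of markers). Replicates 10, 9, 8 and 5 followed, at 1705, 1830, 1897 and 1922 CPM. In this order Psph was 32.0, 33.1, 43.1, 46.8, 54.8, 67.0, 65.3 and 75.4 CPM. Psph was thus higher at each step except from replicate 9 to 8. Slc3a2 was 151, 164, 198, 177, 190, 200, 225 and 230 CPM, a less regular rise. Psat1 did not follow the markers in these libraries, at 245, 241, 235, 225, 261, 233, 243 and 250 CPM. Cebpb was 0.511 CPM in the lowest and 1.83 CPM in the highest of the 2 libraries. Between them, in the same order, it was 0.645, 1.60, 2.03, 1.45, 1.79, 0.948, 0.360 and 2.56 CPM. Its lowest WT value was thus in replicate 8, which was among the libraries high in these markers. Null E8.5 libraries, at 2519 to 4015 CPM of endoderm markers, lay at 79.7 to 114, 253 to 344 and 262 to 415 CPM for these 3, and at 7.06 to 10.6 CPM for Cebpb. The part of the endoderm markers in these genotype differences was not tested. At E10.5 the WT library at 1126 CPM of endoderm markers had Psph at 18.1 CPM and Psat1 at 144 CPM, within or below the other WT libraries.

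**Figure D3:**
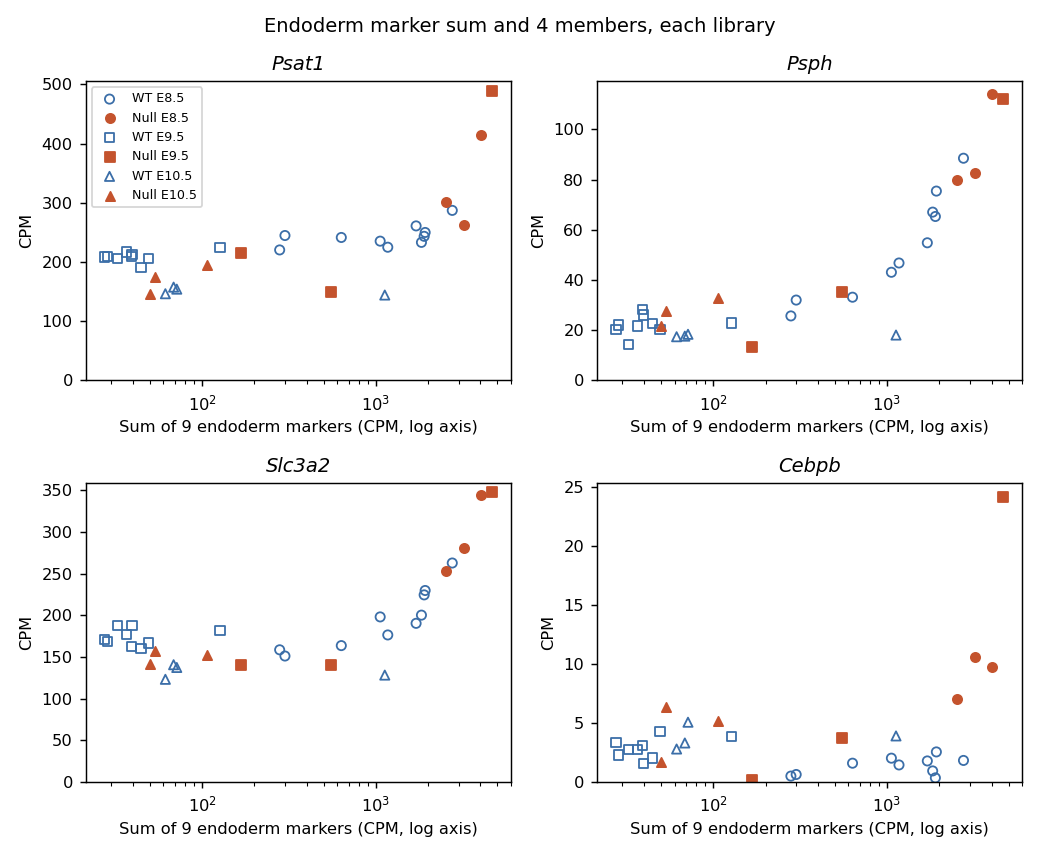
Levels in CPM of Psat1, Psph, Slc3a2 and Cebpb (vertical axes) against the sum of 9 visceral and yolk sac endoderm markers (CPM, log axis) in each of the 32 libraries, with open blue symbols for WT, filled red for Null and a shape per stage. Null E9.5 replicate 3, at 4653 CPM of markers, holds 489 CPM of Psat1, 112 CPM of Psph, 348 CPM of Slc3a2 and 24.1 CPM of Cebpb.

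Shmt2 and Mthfd2, enzymes of the mitochondrial one-carbon pathway that uses serine, were both higher in Null at E10.5. Shmt2 was 65.5 to 89.6 CPM in WT and 119 to 136 CPM in Null E10.5 libraries (log2FC 0.73, SE 0.10, adjusted p = 5.60e-05), and did not pass earlier (0.30 at E8.5 and at E9.5). Its 3′ end overlaps that of Ndufa4l2 on the other strand. Mthfd2 changed direction with stage. It was lower in Null at E8.5, at 73.4, 91.1 and 81.3 CPM against 99.5 to 138 CPM (median 119) in WT, which did not overlap (-0.56, SE 0.11, adjusted p = 0.00565). At E9.5 it was 112, 91.1 and 138 CPM against 129 to 161 CPM (-0.33, SE 0.11, adjusted p = 0.0345). The E10.5 values were 158, 131 and 144 CPM against 87.9, 111, 103 and 120.2 CPM (0.46, SE 0.11, adjusted p = 0.00281). The change at E10.5 exceeded that at E8.5 by 1.01 on the log2 scale (adjusted p = 8.52e-05 for the interaction). The E8.5 decrease had an adjusted p of 0.058 without Null replicate 1, and the E9.5 decrease 0.057 and 0.18 without replicates 1 and 2.

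The amino acid transporters included the member with the largest decrease. Slc7a11, the cystine importer that feeds glutathione synthesis, had 61 counts over 10 WT libraries and 0 counts over 3 Null libraries at E8.5. WT ran from 0 to 1.72 CPM (median 0.611), with 0 in 1 library, so the groups overlapped at 0. Against a floor of 3 counts over the Null group, it was at least 5.7-fold lower in Null, and at least 3.79-, 3.68- and 3.93-fold lower without Null replicate 1, 2 or 3. It passed (adjusted p = 0.0374), and without any 1 Null library it did not (adjusted p of 0.085 to 0.13). At E9.5 levels went from 1.32 to 4.76 CPM (median 2.22) in WT and were 0, 0 and 0.121 CPM in Null libraries, which did not overlap. There, 175 counts in WT stood against 1 count in Null, a ratio of 56.8 with an exact counting interval of 10.1 to 2260 (95%), which covers counting error only (adjusted p = 7.52e-05). Without Null replicate 3, which held the 1 count, it was at least 12.2-fold lower.

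At E10.5 Slc7a11 did not differ in the same way. WT libraries were at 3.70, 2.37, 2.92 and 3.08 CPM and Null libraries at 3.32, 1.36 and 6.29 CPM, which overlapped (log2FC 0.28, SE 0.44, adjusted p = 0.638). The genotype effect at E10.5 differed from that at E8.5 (adjusted p = 0.00583 for the interaction), and its fitted size of 5.95 on the log2 scale rests on the Null libraries at 0 counts and is no bound. Slc7a11 and Chac1, the importer of a glutathione precursor and the enzyme that degrades glutathione, thus went in opposite directions at E8.5 and E9.5.

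Slc7a5, the light chain of the leucine exchanger LAT1, was higher in Null at E8.5, at 30.7, 25.5 and 31.4 CPM against 13.3 to 23.7 CPM (median 19.9) in WT, which did not overlap (log2FC 0.60, SE 0.17, adjusted p = 0.029). It did not pass later (-0.41 at E9.5 and 0.03 at E10.5), and the E9.5 change was below the E8.5 change by 1.05 on the log2 scale (-1.05, adjusted p = 0.0329 for the interaction). Its partner Slc3a2 was higher at E8.5, at 344, 253 and 281 CPM against 151 to 263 CPM (median 194) in WT (0.57, SE 0.14, adjusted p = 0.0146). Both E8.5 calls were lost without Null replicate 1 (0.57, adjusted p = 0.14, and 0.44, adjusted p = 0.13), and that of Slc7a5 also without replicate 3 (0.53, adjusted p = 0.121). Without Null replicate 3, Slc3a2, Slc7a5 and Slc7a1 each passed as lower at E9.5 (-0.28, -1.11 and -0.38).

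Slc7a1, the arginine and lysine transporter CAT1, was higher in Null at E10.5, with a ratio of mean CPM of 1.97. It was 28.0, 27.2, 31.2 and 29.1 CPM in WT and 60.7, 52.6 and 57.4 CPM in Null libraries, which did not overlap (log2FC 0.99, SE 0.11, adjusted p = 4.88e-06). It did not pass at E8.5 (0.43) or E9.5 (-0.19).

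Of the 6 ER chaperones and quality control genes, 3 were higher in Null at E10.5, and Hspa5 was not among them. Hspa5 encodes BiP, the main ER chaperone and the classical readout of the unfolded protein response. In E10.5 libraries it was 1035, 929, 959 and 1054 CPM in WT and 1076, 1058 and 1038 CPM in Null libraries, which overlapped (log2FC 0.10, SE 0.07, adjusted p = 0.291, and -0.04 without scaling factors). The E8.5 range was 1316 to 1663 CPM (median 1563) in WT, with 1395, 1374 and 1197 CPM in Null libraries, and it passed as lower (-0.23, SE 0.07, adjusted p = 0.0368). That call was lost without any 1 Null E8.5 library (adjusted p of 0.063 to 0.17). Over all its alternatives it was lost in 12 and kept in 10. At E9.5 it ran from 1192 to 1692 CPM (median 1418) in WT and was 1310.4, 1179.8 and 1493 CPM in Null libraries (-0.07, SE 0.12, adjusted p = 0.686).

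Of the other 5, 3 were higher in Null at E10.5. Pdia4, an ER disulfide isomerase, was 53.4, 72.4, 89.1 and 103 CPM in WT and 138, 123 and 143 CPM in Null libraries (log2FC 0.77, SE 0.16, adjusted p = 0.00145). Herpud1, a component of ER-associated degradation, was 28.8, 29.5, 29.1 and 30.8 CPM in WT and 44.3, 44.6 and 52.1 CPM in Null libraries (0.68, SE 0.11, adjusted p = 0.000204). Hsp90b1, the ER form of HSP90, was 712, 634, 665 and 755 CPM in WT and 886, 883 and 839 CPM in Null libraries (0.34, SE 0.07, adjusted p = 0.00214, and 0.121 in 1 model of all 32 libraries). None of these 3 overlapped between the groups at E10.5. The 3′ end of Hsp90b1 overlaps 1810014B01Rik on the other strand.

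Pdia4 was lower in Null at E8.5 (-0.45, SE 0.13, adjusted p = 0.027) and higher at E9.5 (0.66, SE 0.21, adjusted p = 0.0246). The E8.5 call was lost without Null replicate 1 (-0.41, adjusted p = 0.142) or 3 (-0.39, adjusted p = 0.115) and in 1 model of all libraries (adjusted p = 0.112). The genotype effects differed from E8.5 by 1.07 at E9.5 (adjusted p = 0.00902) and 1.20 at E10.5 (adjusted p = 0.00378) on the log2 scale. WT Pdia4 ran from 120.1 to 187 CPM at E8.5 and 63.0 to 165 CPM at E9.5, and Null was at 107, 131 and 103 CPM and then 135, 137 and 217 CPM, so that the groups overlapped at both. The E9.5 increase was 0.39 (adjusted p = 0.18) without Null replicate 3. Dnajb9, a J-domain cochaperone, and Sdf2l1, a partner of BiP, did not pass at any stage, with log2 fold changes from -0.33 to 0.25.

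**Figure D4:**
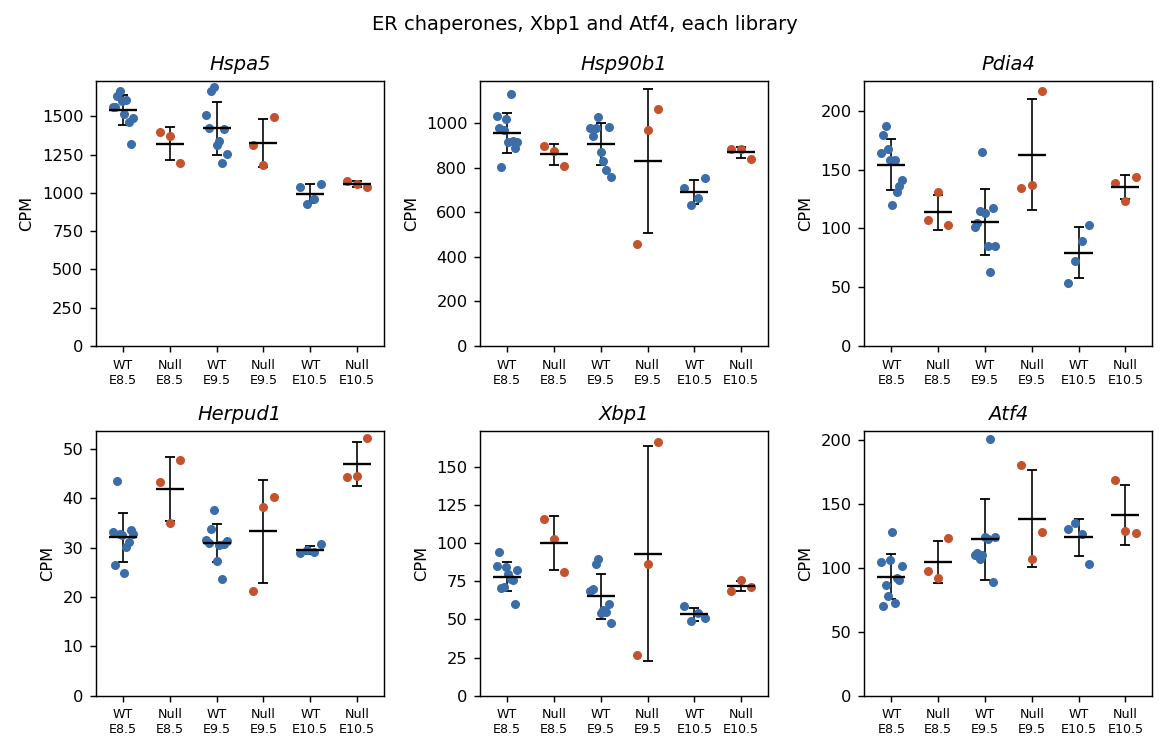
Levels in CPM of Hspa5, Hsp90b1, Pdia4, Herpud1, Xbp1 and Atf4 in each library (points, WT blue and Null red) of the 6 groups, with the group mean (line) and SD (bars, ending at 0 at the lowest). Herpud1 in Null E10.5 lay at 44.3 to 52.1 CPM against 28.8 to 30.8 CPM in WT, while Hspa5 and Atf4 overlapped at E10.5.

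Vldlr, the very low density lipoprotein receptor, is induced through ATF4 under ER stress in mouse cells and by hypoxia. The E9.5 range was 6.23 to 10.1 CPM (median 7.72) in WT, with 22.7, 59.3 and 25.6 CPM in Null libraries, a log2FC of 2.21 (SE 0.23, adjusted p = 5.10e-06). At E10.5 it was 9.83, 9.35, 9.22 and 8.76 CPM in WT and 40.8, 48.5 and 44.1 CPM in Null libraries, a log2FC of 2.26 (SE 0.13, adjusted p = 1.15e-08). The groups did not overlap at either stage, and no Null library changed the calls. At E8.5 Vldlr ran from 5.93 to 23.6 CPM (median 20.3) in WT and was 13.6, 34.9 and 14.2 CPM in Null libraries (0.23, SE 0.34, adjusted p = 0.703). The genotype effects at E9.5 and E10.5 exceeded that at E8.5 by 1.94 (adjusted p = 0.00268) and 2.02 (adjusted p = 0.00201) on the log2 scale.

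The secreted factors were at or near 0. Fgf21, a metabolic hormone, had 1 count in all 32 libraries. Gdf15, a stress hormone of the TGF-beta family, had 8 counts over WT and 27 over Null E9.5 libraries, at 0.137, 0.512 and 2.66 CPM in the 3 Null libraries. It was not tested, and the 2.66 CPM came from the library high in endoderm markers.

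In WT embryos the members were also compared between stages. From E8.5 to E9.5, 11 of 32 rose and 6 fell, 17 in all, beside 26% and 25.8% of all genes, so that the count lay near the share of all genes. Ddit3 rose most (log2 difference 1.91, SE 0.23, adjusted p = 1.58e-07), followed by Trib3 (1.804), Slc7a11 (1.60), Slc7a1 (1.45) and Cebpb (1.05). Psph fell by 1.29, Vldlr by 1.18 and Sesn2 by 0.60 on the log2 scale. From E9.5 to E10.5, 9 fell and 0 rose by edgeR (1, Eif2ak3, at an unadjusted p under 0.05), beside 6.95% and 6.36% of all genes. Trib3 fell by 2.04 (adjusted p = 0.0147), Atf3 by 0.88 (adjusted p = 0.0393), Hspa5 by 0.50 (adjusted p = 0.000113) and Psat1 by 0.45 (adjusted p = 1.87e-05), and Slc7a1, Mthfd2, Asns, Slc3a2 and Hsp90b1 by 0.52 to 0.37. Without WT E10.5 replicate 3, 5 changed, and Trib3 was lost without WT E10.5 replicate 1 (adjusted p = 0.060) or 3 (0.068). The fall of Atf3 was lost in 10 of its alternatives and kept in 17, with an adjusted p of up to 0.118. That of Slc7a1 was lost in 12 and kept in 16 (up to 0.105). These steps share their WT libraries with the genotype comparisons, so no overlap between them is given.

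Further genes of the same pathways were counted from lists that do not repeat the members and were chosen with earlier results of these data known. The shares of all genes to read them by are 6.73% higher and 6.86% lower in Null E8.5, 20.2% higher and 17.4% lower in Null E9.5, and 20.9% higher and 21.4% lower in Null E10.5, and no list was tested. Of 17 tested other ATF4 targets, 8 were higher in Null E10.5 and the others did not pass, with a median log2 fold change of 0.45, against 1 higher and 1 lower at E8.5 and 2 and 1 at E9.5. Stc2, a secreted glycoprotein of the stress response, was at 1.48 to 2.37 CPM in WT and 19.7 to 24.6 CPM in Null E10.5 libraries (3.56, SE 0.22, adjusted p = 2.4e-08). Ddit4, an inhibitor of mTORC1 that also responds to hypoxia, was at 54.1 to 65.5 CPM and 216 to 295 CPM (2.08, SE 0.11, adjusted p = 5.4e-09). Slc1a4 (1.19) and Slc1a5 (1.06), carriers of neutral amino acids, Eif4ebp1 (1.01), a repressor of translation, Mthfd1l (0.97), Slc38a2 (0.78) and Cars (0.52) were the others. Ddit4 and Stc2 were also DEGs at E9.5 (1.78 and 1.36).

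Of 19 tested cytosolic aminoacyl-tRNA synthetases, which load tRNAs and of which many are ATF4 targets, 8 were higher and 2 lower in Null E10.5, above and below the share of all genes, with a median log2 fold change of 0.19. Iars (0.82), Eprs (0.70) and Dars (0.67) were among the higher, and Farsa (-0.91) and Hars (-0.31) were lower. Farsa was lower at E9.5 too (-0.77). At E8.5 1 was higher, Qars (0.30).

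On the ER side, 5 of 15 tested other chaperones and folding enzymes were higher in Null E10.5 and 8 of 15 at E9.5, the others not passing, and 2 were higher and 2 lower of 16 at E8.5. The share higher lay above that of all genes at E9.5 and E10.5, while both E8.5 counts were within 1 gene of the share of all genes. Ero1l, an ER oxidase that also responds to hypoxia, was higher at all 3 stages (0.76, 2.39 and 1.43), and Txndc5 (0.85), Canx (0.53) and P4hb (0.51) were higher at E10.5. Of 14 ER-associated degradation genes, 2 were higher and 2 lower at E10.5, both within 1 gene of the share of all genes. At E9.5, 6 were higher and 1 lower, and the share higher lay above that of all genes. Among 13 tested further eIF2 kinases, phosphatases and eIF2 subunits, 2 were higher and 4 lower at E10.5. Eif2s3x, a gamma subunit of eIF2, was lower at E9.5 (-1.03) and E10.5 (-0.93), and Eif2ak1, the heme-regulated kinase of blood cells, at E10.5 (-0.47), where erythroid markers were lower in Null. Their part in this result was not tested.

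Cytosolic heat shock genes gave 3 higher of 10 at E10.5, with Hspb1 at 1.67 and Bag3 at 0.89, and mitochondrial chaperones and proteases 2 higher of 8 (Hspe1, 0.41, and Hspa9, 0.30), which for both lists is within 1 gene of the share of all genes. Of 12 genes of folate one-carbon and glycine metabolism, 4 were higher and 2 lower at E10.5. Gldc, of the glycine cleavage system, was at 15.8 to 23.2 CPM in WT and 29.5 to 235 CPM in Null E9.5 libraries (2.38, SE 0.39, adjusted p = 0.00024), and at 12.4 to 17.7 and 15.3 to 35.8 CPM at E10.5 (0.73).

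**Figure D5:**
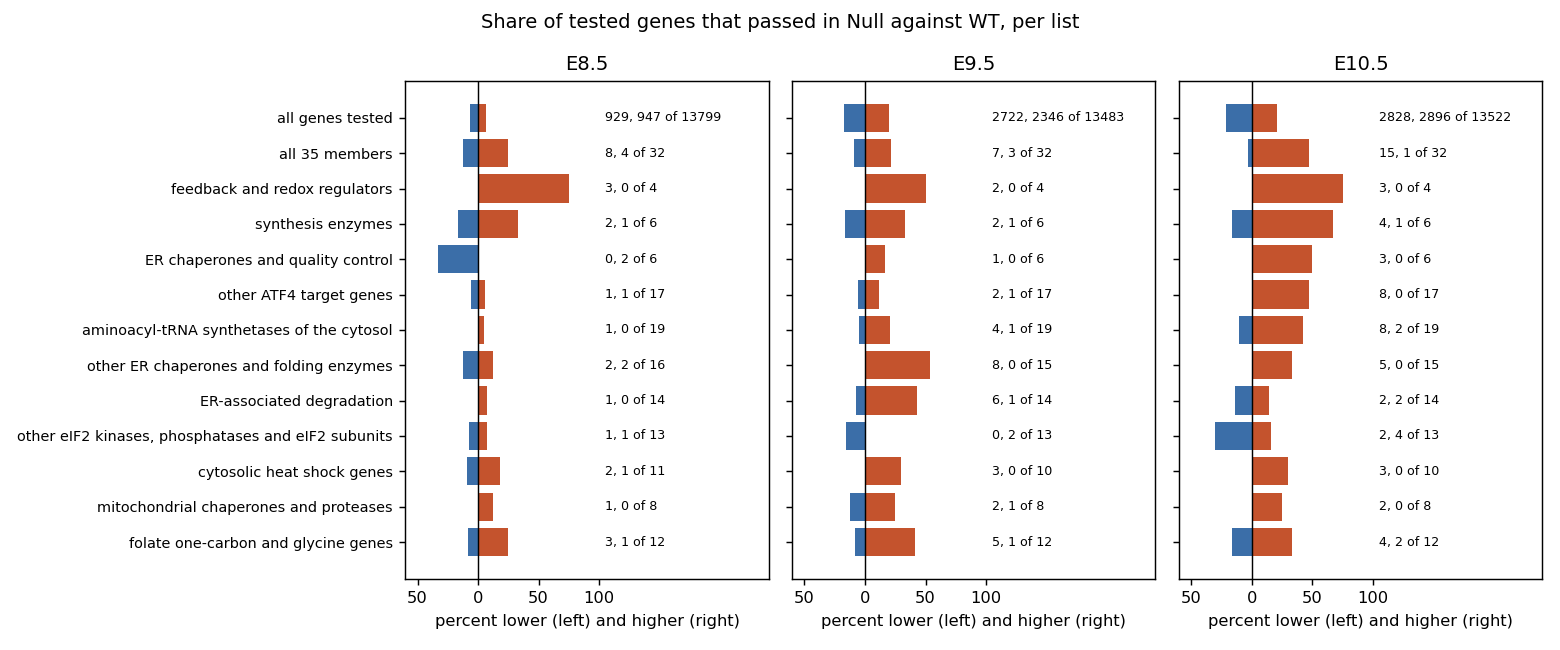
Percent of the tested genes of each list that passed as higher (red, to the right) or lower (blue, to the left) in Null against WT at each stage, with the counts higher and lower of the number tested at the right. Of the other ATF4 targets 8 of 17 were higher at E10.5 and 1 of 17 at E8.5, beside 20.9% and 6.73% of all genes tested.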

How the data were processed

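Whole embryos were profiled by QuantSeq 3′ FWD libraries read single-end. The authors deposited unnormalized read counts by Ensembl gene in a single table, made by trimming (BBDuk in the paper's methods, Trimmomatic 0.35 in the submitters' processing notes) and aligning with STAR to coding regions of mm10. For the counting tool, the strand setting and the annotation release the sources used here give nothing, so reads of overlapping antisense genes cannot be told apart. Of 55414 identifiers, 52081 matched a symbol, and 0 columns of values lacked a sample. Libraries were grouped by the genotype and stage in the labels.

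Null and WT libraries of a stage were compared in edgeR 4.0.16 (R 4.3.3): TMM factors, filterByExpr (10 counts, 15 in total), quasi-likelihood test, and Benjamini-Hochberg adjustment over all genes tested. Stages were compared as an interaction in 1 model of all 32 libraries, and WT stages in a model of the WT libraries. The standard error is the log2 fold change divided by the root of F. With 0 counts in a group, a fold is a bound that takes 3 counts for the whole group as floor. The step was tested on simulated data. The 96 pairs of libraries within groups differed beyond sampling noise (chi-square per gene 2.87 to 73.8), and each library was 1 replicate. Where libraries share a litter or were pooled is unknown, so p-values measure the spread between these libraries.

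Members, lists and tests were chosen with earlier results of these data known. Every library's value, or the lowest, median and highest for groups over 5 libraries, is given for members that were DEGs at 1 stage or more and for Atf4, Ddit3, Asns, Psat1, Xbp1 and Hspa5, and the values of some others (Eif2ak4, Cebpg, Mthfd2, Phgdh, transporters and chaperones) were added after they were seen. Alternatives were the Wald test of DESeq2 1.42.0, RLE factors, no factors, leaving out globin genes or the most abundant identifier, no filter, a stricter filter (50 counts, 3 libraries), 1 model fitted to all 32 libraries, a block for the replicate number, and leaving out each library. Promoter sequences are RefSeq's (GRCm38.p6), and start sites may differ from those used in the embryo. Mars1 of the synthetase list had no row by that symbol.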

Additional observations from a re-analysis of the deposited data

Results flagged for a closer look

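In 10 of 96 groups of 4 to 10 libraries, all of them WT, 1 library lay far from the rest. Null groups, with 3 libraries, could not be tested in this way. Chance alone gives about 1 in 20 for normally distributed values, which CPM need not be, so no excess is shown. Among the WT E8.5 libraries these were Ern1 in replicate 6 (6.78 CPM, the others at 2.09 to 4.47), Atf3 in replicate 4 (7.28, others 2.28 to 4.36) and Herpud1 in replicate 3 (43.5, others 24.8 to 33.6). Among the WT E9.5 libraries, Atf4 was highest in replicate 7 (201 CPM, others 89.2 to 125), the library in which Slc7a1 was lowest (32.6, others 41.5 to 47.1). Atf5 was highest in replicate 9 (28.0, others 11.6 to 16.8) and Slc7a11 in replicate 6 (4.76, others 1.32 to 2.89). Among the 4 WT E10.5 libraries, Atf6 was highest in replicate 1 (16.2 CPM, others 11.3 to 12.0), which was also the one high in endoderm markers, Trib3 was highest in replicate 2 (3.04, others 0.817 to 1.18) and Dnajb9 lowest in replicate 2 (10.4, others 11.8 to 12.1).

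The effect of the Null genotype on a member differed between stages in 13 interaction tests by edgeR, for 4 members at E9.5 against E8.5 (11.1% of all genes) and for 9 at E10.5 against E8.5 (18.5% of all genes). At E9.5 the effect minus that at E8.5 was -0.83 for Cebpg, -1.05 for Slc7a5, 1.07 for Pdia4 and 1.94 for Vldlr on the log2 scale. At E10.5 it was 0.76 for Eif2ak4, 2.43 for Atf3, -2.49 for Cebpb, 3.48 for Chac1, 1.14 for Sesn2, 1.01 for Mthfd2, 5.95 for Slc7a11, 1.2 for Pdia4 and 2.02 for Vldlr, and the value of Slc7a11 is a fitted one against libraries at 0 counts. Both comparisons share the E8.5 libraries, and Cebpg, Slc7a5 and Cebpb had adjusted p of 0.0479, 0.0329 and 0.0468. The call of Cebpg was lost in 28 of its alternatives and kept in 9, and that of Cebpb lost in 23 and kept in 14. Those of Slc7a5 and Sesn2 were each lost without 4 single libraries, and that of Eif2ak4 without 2.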

How the results depend on the processing

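Of 634 values of single members under alternatives that kept all libraries, 595 kept their direction and their side of the threshold, 32 lost the call, 3 gained it and 4 reversed. The reversals were Ddit3 at E9.5 without factors (-0.17), without a filter (-0.040) and in 1 model (-0.020), and Hspa5 at E10.5 without factors (-0.038). Without factors the median of all genes fell by 0.17 at E9.5 and by 0.13 at E10.5 (main 0.02 and 0.01, without factors -0.17 and -0.13), and 4 members were higher and 5 lower at E9.5 in place of 7 and 3, and 2 lower in place of 1 at E10.5. At E8.5, 2 in place of 4 members were lower with the filter of 50 counts and with 1 model of all libraries, and at E10.5 the 1 lower member, Phgdh, was lost in 1 model, so that 0 remained. Counting only DEGs, 4 members were higher and 1 lower at E8.5, 5 higher and 1 lower at E9.5, and 5 higher and 0 lower at E10.5. The causes were not tested.

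With the replicate number as a block, 1 member was higher and 0 lower at E9.5, where numbers shared by WT and Null are 3 and the other libraries add nothing, and Chac1, Psat1 and Slc7a11 were lost at E8.5. Whether the numbers pair the samples is not known from the labels. The correlations of same-numbered deviations ran from -0.0908 to 0.182, and not every pair was above 0.1. They cannot decide whether a number marks a shared litter, since each Null mean rests on 3 libraries.

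Leaving out 1 library gave 3 to 10 members higher and 0 to 4 lower at E8.5. At E9.5 it gave 4 to 13 higher and 2 to 7 lower, and at E10.5 15 to 16 higher and 0 to 1 lower. The interactions ran from 2 to 8 members at E9.5 and from 6 to 11 at E10.5, and the WT steps from 15 to 19 and from 5 to 9. Of 1525 single values 1366 kept their call, 142 lost it, 6 gained it and 11 reversed. At E9.5 the reversals reached -0.25 for Ddit3 (range -0.25 to 0.39), -0.031 for Atf4 (to 0.37), 0.0093 for Hspa5 (from -0.17), -0.54 for Cebpb (to 2.29), -0.18 for Xbp1 (to 0.98) and -0.18 for Psat1 (to 0.78), and at E10.5 -0.019 for Ddit3 (to 0.33). With 3 Null libraries per stage, 1 Null library decides many E8.5 and E9.5 calls, and genes with few tags, such as Slc7a11 and Gdf15, are limited by depth.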
